A study of Mus musculus and Rattus norvegicus with 2 samples.

Results

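Fragments of the spliceosomal small nuclear RNAs (snRNAs) were described in sperm of the mouse and the rat. Members were the distinct sequences that the deposited tables assign to U1, U2, U4, U5, U6, U11, U12, U4atac or U6atac of the Rfam database, or to a GenBank entry marked as snRNA. There were 1189 such sequences among 224032 sequences with a count. Of these, 642 of 86644 were in the mouse library and 547 of 137388 in that of the rat. The sperm were taken from the cauda, the last segment of the epididymis. The mouse library came from C57BL/6 mice aged 2 months, that of the rat from young adult Sprague Dawley rats of 450 g. Neither group is described as mutant or treated. Both libraries are described as total RNA cut to 18 to 45 nt, though listed sequences reached 71 nt. There was 1 library per species, and the sources used here do not give the number of animals. There was therefore no replicate error, no test was possible, and species, strain, age and library cannot be told apart.

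snRNAs are the RNA cores of the spliceosome, the machine that removes introns from precursor mRNA in the nucleus. U1 recognises the 5′ splice site, U2 pairs with the branch site, U6 replaces U1 at the 5′ splice site and forms the catalytic centre with U2, U4 holds U6 inactive until activation, and U5 aligns the exons. A rare class of introns is removed by the minor spliceosome, in which U11, U12, U4atac and U6atac take the places of U1, U2, U4 and U6. All but U6 and U6atac carry an Sm site, a short run rich in U that is bound by a ring of Sm proteins. Mature sperm transcribe little, and their nuclei are compacted.

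The reads were not spread evenly along the snRNAs. U1 and U11 are shown whole, as the mouse gene gives it, with the most abundant fragment in capitals, because these fragments carry part of what follows. Rnu1a1 is on chromosome 11, 87422867 to 87423030, plus strand. Rnu11 is on chromosome 4, 132270080 to 132270213, minus strand. These are GRCm38 positions of snRNA genes in the GENCODE M21 annotation. The Rnu1a1 sequence stands in 7 annotated snRNA genes, so the source gene of a read cannot be told. Capitals cover positions 121 to 144 of U1 (rat library, 38 reads) and 5 to 35 of U11 (rat library, 33 reads), counted from the 5′ end.
U1: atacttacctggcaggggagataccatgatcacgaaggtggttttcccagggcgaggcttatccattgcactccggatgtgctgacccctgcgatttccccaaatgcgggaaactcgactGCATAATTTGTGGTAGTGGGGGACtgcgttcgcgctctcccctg
U11: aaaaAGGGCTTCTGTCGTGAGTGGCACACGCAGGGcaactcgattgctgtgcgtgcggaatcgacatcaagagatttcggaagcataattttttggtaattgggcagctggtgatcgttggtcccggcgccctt

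Abundant single fragments of U1, U2 and U11 follow, with a motif known for the snRNA in capitals. These are GTAGTA in U2, which pairs with the branch site, and the Sm sites ATTTGTG of U1 and ATTTTTG of U2. A motif was sought on the read's own strand only, and a match is a description. Where a fragment has no capitals, it holds none of them.
U1, positions 121 to 144: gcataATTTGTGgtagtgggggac
U2, positions 1 to 21: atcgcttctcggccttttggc
U2, positions 17 to 46: ttggctaagatcaagtGTAGTAtctgttct
U2, positions 155 to 187: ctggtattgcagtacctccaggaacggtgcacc
U2, positions 146 to 183: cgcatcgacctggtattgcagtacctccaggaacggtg
U11, positions 5 to 35: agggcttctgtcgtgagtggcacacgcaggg

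The snRNA annotation held 1644 of 691381 listed mouse reads and 1454 of 2102735 listed rat reads. That was 0.238% of the mouse reads (exact Clopper-Pearson 95% interval 0.226 to 0.250), and in the rat 0.0691% (0.0656 to 0.0728). The mouse share was 3.44 times that of the rat. Per 1000 reads of mature miRNA, another small RNA class, the values were 69.9 and 56.0, a ratio of 1.25. With 1 library per species, intervals cover counting error only. They treat each read as independent, which copies made by PCR are not, so they can be too narrow. Identifiers that the tables do not list, 78279 for the mouse and 63001 for the rat, were not analysed here.

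The sperm label was checked against miRNAs. miR-34b/c and miR-449a, typical of spermatogenic cells, held 1.55% of mouse and 25.98% of rat miRNA reads, with 4 of 4 detected in both. The muscle and stroma list, led by miR-143-3p, held 10.3% and 3.25% with 3 of 3 detected, and the epithelial list 0.961% and 0.482% with 4 of 4. The blood list held 0.179% with 4 of 5 detected in the mouse and 0.0116% with 3 of 5 in the rat. miR-150-5p had 0 mouse reads, and miR-451a and miR-486-5p had 0 rat reads. These list totals move with species, and their part in the snRNA differences was not tested. RNA from fewer cells of a type cannot be told apart from less RNA per cell.

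Not all annotated reads matched an snRNA. Annotated reads were placed on mouse snRNA genes without gaps and with at most 2 mismatches. In the mouse, 1381 reads (84.0%) of 475 sequences could be placed, and in the rat 1252 reads (86.1%) of 407. No rat genome was used here, so rat reads were set on mouse genes, and 94.6% of the placed rat reads still matched exactly, against 91.2% in the mouse. Shares per snRNA below are of the placed reads.

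U6 led in the mouse and U1 in the rat. U6 gave 815 mouse reads, 59.0% of the placed reads (56.4 to 61.6), and 36 rat reads, 2.88% (2.02 to 3.96). U1 gave 328 mouse reads, 23.8% (21.5 to 26.1), and 616 rat reads, 49.2% (46.4 to 52.01). U2 gave 170 mouse reads, 12.3% (10.6 to 14.2), and 362 rat reads, 28.9% (26.4 to 31.5). By reads the order was thus U6, U1, U2 in the mouse and U1, U2, U11 in the rat. When each distinct sequence was counted once, over all annotated sequences, U1 led in the mouse too, with 29.3% against 23.1% for U6.

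U11, which recognises the 5′ splice site of the rare introns, gave 9 mouse reads and 185 rat reads. That was 0.652% (0.298 to 1.23) and 14.8% (12.9 to 16.9) of the placed reads. U12, its partner at the branch site, gave 26 mouse reads, 1.88% (1.23 to 2.75), and 13 rat reads, 1.04% (0.554 to 1.77). U6atac gave 1 and 6 reads. The minor spliceosome as a whole, U11, U12, U4atac and U6atac, held 36 mouse reads, 2.61% (1.83 to 3.59), and 204 rat reads, 16.3% (14.3 to 18.5). U11 was most of that in the rat, while U12 was most of it in the mouse.

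U4 and U5 were scarce in both libraries. U4, the partner that keeps U6 inactive, gave 13 and 28 placed reads, and U5, which aligns the exons, gave 19 and 6. U4atac, the minor counterpart of U4, had no annotated read, and 3 counts allow up to 0.000434% of the listed mouse reads and 0.000143% of the rat reads. A search under all labels found 1 exact mouse read of U4atac.

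Scaled to 1000000 listed reads, U6 showed the widest gap between the libraries among placed reads, with 1179 mouse reads against 17.1 rat reads, a ratio of 68.9. U5 was 9.63 times and U12 6.08 times higher in the mouse, though for U5 the ratio was 1.62 with exact matches under all labels. By that count U12 had 56 mouse reads and 1 rat read, and only 1 of the 13 placed rat U12 reads matches the mouse gene exactly, so no ratio is drawn from it. Of the 26 placed mouse U12 reads, 11 carried a GenBank label, while no rat read with such a label could be placed. The mouse-to-rat ratios of U1, U2 and U4, 1.62, 1.43 and 1.41, were smaller. U11 went the other way, with 13.02 mouse reads against 88.0 rat reads, 6.76 times higher in the rat.

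**Figure D1:**
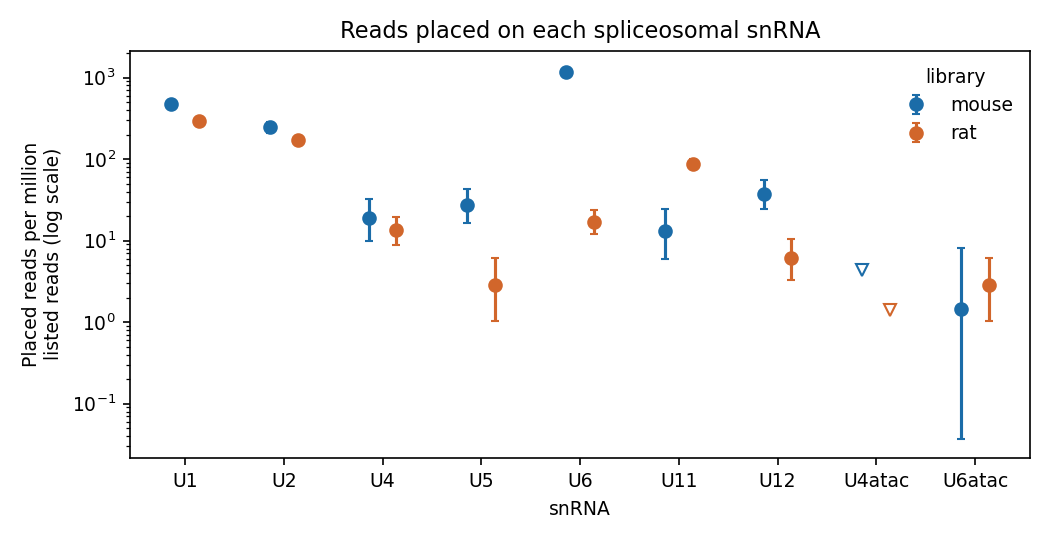
Reads placed on each snRNA per 1000000 listed reads (log scale) in the mouse (blue) and rat (orange) library, with exact Poisson 95% intervals, where open triangles mark the limit of 3 counts for U4atac with 0 reads. U6 stood at 1179 (mouse) and 17.1 (rat), and U11 at 13.02 and 88.0.

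Other structural RNAs did not share 1 direction. As shares of listed reads, the mouse-to-rat ratio was 3.30 for tRNA, near that of the snRNAs, and 0.371 for rRNA, which alone filled 51.4% of the rat reads. The ratio was 4.37 for snoRNA, 1.23 for 7SK and 0.981 for SRP RNA. U3, a nucleolar RNA, had 71 mouse and 717 rat reads, Y RNA 141 and 2327, and vault RNA 56 and 2459. U7, U8 and U13 had no read under those labels in either library.

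In the mouse library, U6 reads were fixed at the 3′ side and varied at the 5′ side. The last base lay at position 64 in 661 of 815 mouse reads (81.1%, 78.2 to 83.7). These 661 reads were 59 sequences with 21 different first bases, from position 4 to 45, and lengths from 20 to 61 nt. Position 71 was the next most used end with 53 reads, followed by 78 with 29.

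The rat library differed in where its few U6 reads lay. Position 78 was the last base of 11 of 36 reads, 79 of 7 and 64 of 4 (11.1%, 3.11 to 26.1). The most used first base was 42, with 5 reads. The ACAGAGA stretch, which pairs with the 5′ splice site, lies at positions 41 to 47 and was held by 758 of 815 mouse reads (93.0%, 91.0 to 94.7) and by 9 of 36 rat reads (25%, 12.1 to 42.2). These intervals cover counting error only, and the rat share rests on 36 reads.

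No U6 read began in the first 3 bases or ended in the last 3 in either library. In all listed reads, ACAGAGA stood in 0.148% of mouse reads and 0.0134% of rat reads, and the snRNA annotation made up 74.6% of those mouse reads and 3.19% of those rat reads.

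**Figure D2:**
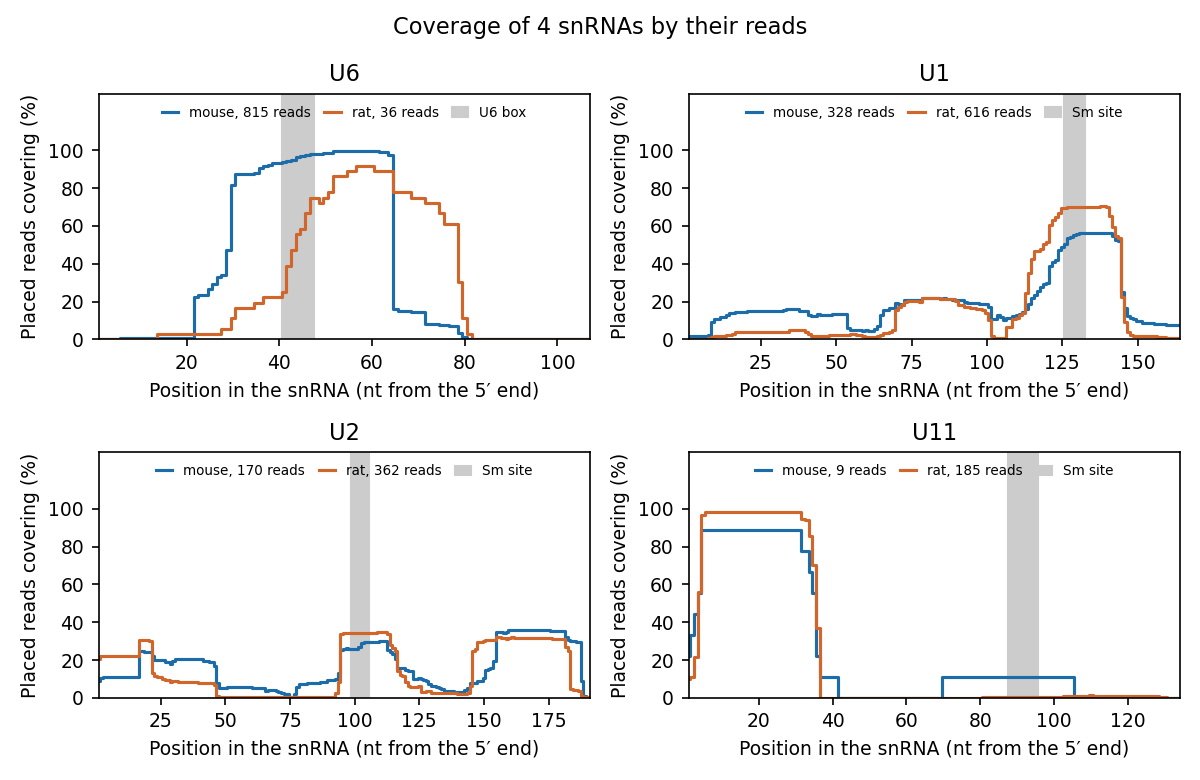
Share of the placed reads of U6, U1, U2 and U11 (%) that cover each position, counted in nt from the 5′ end, in the mouse (blue) and rat (orange) library, with the U6 box or the Sm site shaded. Mouse U6 reads covered positions 53 to 55 in 99.5% of cases, U1 peaked at position 139 in both libraries, and U11 was covered almost only within its first 50 positions.

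U1 reads gathered in the 3′ part of the molecule in both libraries. Position 144 was the most used last base in each, with 88 of 328 mouse reads (26.8%, 22.1 to 32.0) and 191 of 616 rat reads (31.0%, 27.4 to 34.8). Position 145 followed with 28 and 80 reads. The Sm site of U1, positions 126 to 132, was held by 164 mouse reads (50%, 44.5 to 55.5) and 424 rat reads (68.8%, 65.0 to 72.5). The same 7 letters stood in 4.44% of all listed mouse reads and 0.216% of all rat reads, so they do not mark U1 by themselves. The 24 nt fragment of positions 121 to 144 was the most abundant U1 sequence of both libraries, with 23 mouse and 38 rat reads.

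Other ends of U1 fragments were used to different degrees. Reads ending at position 53 were 25 in mouse sperm (7.62%, 4.99 to 11.05) and 2 in rat sperm (0.325%, 0.0393 to 1.17). Of these, 14 mouse reads were the 45 nt fragment of positions 9 to 53, which had 1 rat read. Reads ending at position 101 were 21 in mouse sperm (6.40%, 4.01 to 9.62) and 50 in rat sperm (8.12%, 6.08 to 10.6). The last base of U1, position 164, ended 24 mouse reads (7.32%, 4.74 to 10.7) and 4 rat reads (0.649%, 0.177 to 1.65). ACTTACC at positions 3 to 9, which pairs with the 5′ splice site, was in 5 mouse and 2 rat reads.

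Most U1 reads that could tell the gene copies apart had the U1a form. U1a is the common form of adult tissue, and U1b forms are known from embryonic tissue. Rnu1a1 alone was matched exactly by 108 mouse and 140 rat reads, and Rnu1b1 alone by 6 and 6. Against Rnu1b6, another U1b copy, Rnu1a1 had 222 mouse reads to 7 and 408 rat reads to 32. Both copies were set on mouse genes, and rat copies were not analysed here.

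Most U2 fragments came from 3 regions, and their ends differed between the libraries. Reads within positions 1 to 50, the 5′ part, were 41 of 170 in the mouse (24.1%) and 110 of 362 in the rat (30.4%). Reads within the last 50 positions of the gene, 142 to 191, were 61 (35.9%) and 116 (32.0%). Those within 89 to 125, from 10 bases before the Sm site to 20 after it, were 26 (15.3%, 10.2 to 21.6) and 116 (32.0%, 27.3 to 37.1). Only reads wholly inside a region were counted, so this short one leaves out longer reads over the Sm site. Reads that held the Sm site, at any length, were closer, at 24.7% (18.4 to 31.9) and 33.7% (28.8 to 38.8).

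At the 3′ side of U2, the mouse reads ran to the end of the RNA and the rat reads stopped short of it. RefSeq ends U2 at position 187, where 35 mouse reads (20.6%, 14.8 to 27.5) and 10 rat reads (2.76%, 1.33 to 5.02) ended. Position 188, 1 base further, ended 13 and 3 reads. Position 183 ended 1 mouse read (0.588%, 0.0149 to 3.23) and 73 rat reads (20.2%, 16.2 to 24.7). The fragment of positions 155 to 187 had 17 mouse and 4 rat reads, and that of 146 to 183 had 0 mouse and 47 rat reads.

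At the 5′ side of U2, position 1 began 15 mouse and 74 rat reads. Position 21 ended 3 mouse reads (1.76%, 0.365 to 5.07) and 61 rat reads (16.9%, 13.1 to 21.1). The 21 nt fragment of positions 1 to 21 was the most abundant snRNA sequence of the rat library, with 57 reads. The mouse table lists it with a month in place of its identifier and no count, and its month number would be 7 reads. These 7 are not among the 15 mouse reads beginning at position 1 or the 3 ending at position 21. The neighbouring fragment of positions 17 to 46, which holds GTAGTA, had 16 mouse and 21 rat reads. GTAGTA was in 35 of 170 mouse U2 reads (20.6%, 14.8 to 27.5) and 31 of 362 rat U2 reads (8.56%, 5.89 to 11.9), beside 0.153% and 0.0433% of all listed reads.

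Fragments around the Sm site of U2 began mostly at position 95, with 21 mouse and 92 rat reads. ATTTTTG, positions 99 to 105, was in 42 mouse U2 reads (24.7%, 18.4 to 31.9) and 122 rat reads (33.7%, 28.8 to 38.8). Of all listed reads, 0.0529% in mouse sperm and 0.00770% in rat sperm held it. Next to it the libraries carried different U2 forms. The annotated mouse genes Rnu2-10 and Gm23472 differ by G109C, counted from 1 at the 5′ end of U2, and positions 93 to 118 of both are shown with that base in capitals.
Rnu2-10: aaatggatttttggaaGtaggagttg
Gm23472: aaatggatttttggaaCtaggagttg

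In the mouse, 39 reads matched Rnu2-10 alone and 8 matched Gm23472 alone, so Rnu2-10 held 83.0% (69.2 to 92.4) of the reads that tell them apart. In the rat these were 6 and 114, or 5% (1.86 to 10.6). The rat fragment of positions 95 to 116 with the Gm23472 base had 26 reads. The gene copies of the rat itself were not analysed here.

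**Figure D3:**
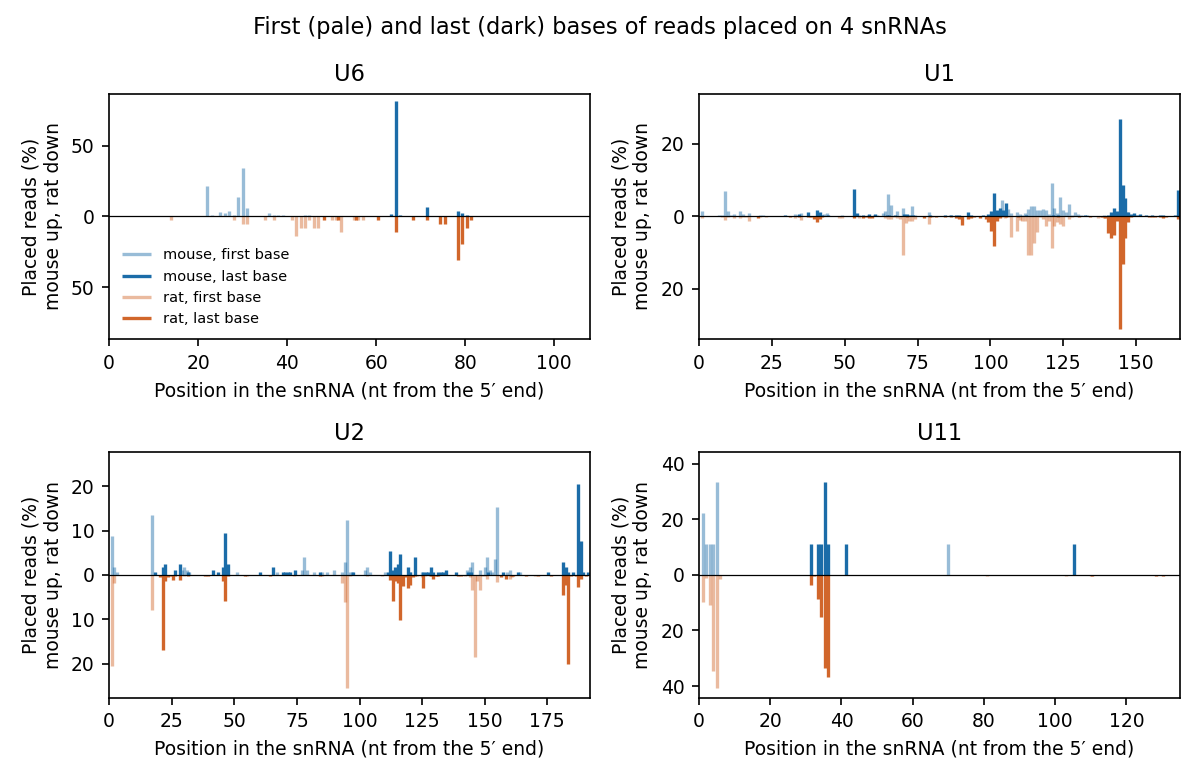
Share of the placed reads of U6, U1, U2 and U11 (%) whose first base (pale) or last base (dark) lies at each position in nt from the 5′ end, mouse upward in blue and rat downward in orange. The last base of mouse U6 stood at position 64 in 81.1% of reads, that of U1 at 144 in 26.8% and 31.0%, and that of U2 at 187 in mouse sperm and 183 in rat sperm.

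U11 reads came almost only from the 5′ end of the molecule. The stretch from position 1 to 50 contained 8 of 9 mouse reads and 182 of 185 rat reads (98.4%, 95.3 to 99.7). In the rat, 75 reads began at position 5 and 64 at position 4, while 68 ended at 36 and 62 at 35. The mouse reads, though few, used the same region, with 3 beginning at 5 and 3 ending at 35. The Sm site ATTTTTTG, positions 88 to 95, was in 1 read of each library, unlike U1 and U2, where Sm fragments were frequent. Of the rat reads labelled U11, 183 of 186 carried 2 mismatches to their deposited database entry, yet 184 of the 185 placed reads matched mouse Rnu11 exactly.

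U12 reads lay around its Sm site and, in the mouse, at the 3′ end. Positions 65 to 101 contained 13 of 26 mouse reads and 10 of 13 rat reads. The last base, position 151, ended 7 mouse reads (26.9%, 11.6 to 47.8) and 0 rat reads, which at 13 reads allows up to 24.7%. Position 97 ended 3 mouse and 9 rat reads. Only 1 of the 13 rat U12 reads matched mouse Rnu12 exactly. All 6 rat U6atac reads covered positions 20 to 49, and 5 ended at position 51. The single placed mouse U6atac read ran from position 20 to 55.

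Of the 28 placed rat U4 reads, 8 were the fragment of positions 25 to 47, and 19 covered positions 33 to 47. The 13 mouse U4 reads had 12 different first bases. The loop of U5 that touches the exons, TTTTACT at positions 40 to 46, was in 3 of 19 mouse reads and 0 of 6 rat reads. The most used last base of U5 was position 78 in both libraries, with 3 and 2 reads.

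Over all placed snRNA reads, most lay away from the molecules' own ends, to a degree that differed by snRNA. Reads beginning in the first 3 bases were 32 in mouse sperm (2.32%, 1.59 to 3.26) and 124 in rat sperm (9.90%, 8.31 to 11.7). Reads ending in the last 3 bases were 85 (6.15%, 4.95 to 7.55) and 19 (1.52%, 0.916 to 2.36). All others were internal at both sides, 91.5% and 88.6%. U2 gave most of the 5′ reads in the rat, 81 of 124, and U11 another 40. U2 with 51 and U1 with 25 gave most of the 3′ reads in the mouse. The order for the 3′ end rests on the window of 3 bases: with 6 bases it turned, to 6.52% in mouse sperm against 8.55% in rat sperm, since position 183 of U2 then counts as its end. If U2 is taken to end at position 191, as GENCODE has it, the 3′ shares become 2.61% and 0.399%.

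The first base of the reads was A in 57.1% of mouse and 48.6% of rat snRNA reads, against 12.6% and 18.8% of all listed reads. Of the mouse U6 reads, 81.6% began with A. Among U11 reads, A came first in all 9 of the mouse and in 97.3% of the rat. The A share was lower for the other snRNAs compared. It was 38.9% for rat U6. For U1 it was 29.9% (mouse) and 32.5% (rat), and C led in rat U1 with 33.3%. For U2 it was 34.7% (mouse), close to 34.1% for C, and 59.1% (rat). Each of these A shares still lay above that of all listed reads in its library, while its size varied by snRNA.

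Lengths differed between the libraries. Annotated mouse snRNA reads had a median of 35 nt and peaked at 35 nt (326 reads) and 43 nt (257 reads). Rat reads had a median of 29 nt and peaked at 21 nt (127 reads), the length of the U2 5′ fragment, with 111 reads each at 31 and 32 nt. Reads of 18 to 25 nt were 12.2% in mouse sperm (10.7 to 13.9) and 36.3% in rat sperm (33.8 to 38.8), beside 17.6% and 31.0% of all listed reads. Reads of 36 to 45 nt were 43.7% (41.3 to 46.1) and 13.3% (11.6 to 15.1), beside 15.2% and 7.80%. Among placed reads alone, 18 to 25 nt held 11.8% in the mouse and 31.5% (28.9 to 34.1) in the rat. The placed rat reads were thus close to the 31.0% of all listed rat reads. Longer reads, beyond the stated cut, were 81 in the mouse (4.93%) and 2 in the rat (0.138%), of which 18 and 0 could be placed. By snRNA, 18 to 25 nt held 2.21% of mouse U6, 28.4% of mouse U1 and 31.0% of rat U1. It held 48.1% of rat U2 and 0.541% of rat U11. For U1 the 2 libraries gave near values in this window only, with counting intervals of 23.5 to 33.6 (mouse) and 27.4 to 34.8 (rat). Above it they differed, with U1 reads of 26 to 35 nt at 30.8% (mouse) and 60.1% (rat). U1 reads of 36 to 45 nt were 40.2% (34.9 to 45.8) and 8.93% (6.80 to 11.5). Equality of the species was not tested.

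**Figure D4:**
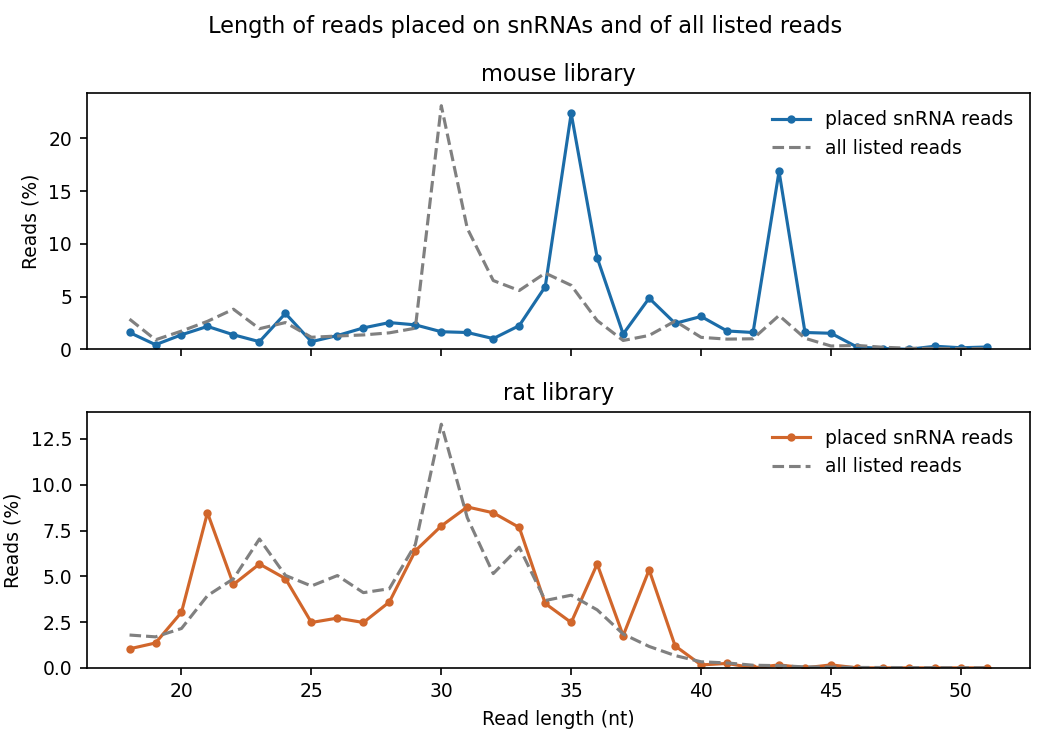
Share of reads (%) at each length in nt among reads placed on snRNAs (solid) and among all listed reads (dashed), with the mouse above and the rat below on separate scales. Placed mouse reads peaked at 35 nt with 22.4% and again at 43 nt, while placed rat reads peaked at 31 nt with 8.79% and at 21 nt, and all listed reads peaked at 30 nt in both.

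The mouse reads were more concentrated in few sequences. The most abundant sequence held 250 of 1644 mouse reads (15.2%, 13.5 to 17.0) and 57 of 1454 rat reads (3.92%, 2.98 to 5.05). The 10 most abundant held 40.5% (38.1 to 42.9) and 21.5% (19.4 to 23.7). The inverse Simpson number, the count of equally abundant sequences that would give the same concentration, was 26.3 in mouse sperm and 120.3 in rat sperm. For mouse U6 alone it was 6.72, while U1 had 65.3 in mouse sperm and 68.4 in rat sperm. U2 went the other way, with 33.8 in mouse sperm and 17.4 in rat sperm. Its 10 most abundant sequences held 40.6% of mouse and 56.6% of rat U2 reads. Rat U11 reached 10.3. Sequences read once numbered 487 of 642 in the mouse and 386 of 547 in the rat.

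Identical snRNA sequences in both libraries numbered 94, and made up 30.6% of mouse snRNA reads and 28.7% of rat snRNA reads. The overlap among all listed sequences is not given here. Whether snRNA fragments are shared more or less often than other sequences therefore cannot be told. A single U6 sequence gave 250 of the 503 shared mouse reads and 2 of the 418 shared rat reads. The others included the U1 fragment of 121 to 144 and the U2 fragment of 17 to 46.

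Part of the annotation did not hold snRNA sequence. In the rat, only 28 of 133 reads labelled U4 could be placed on U4. Of the other 105, 68 shared an 18-mer with reads annotated as tRNA and 69 with reads annotated as 7SK, and 1 read can do both. The most abundant of them, with 20 reads, is shown because it is among the 10 most abundant sequences of the rat annotation and could not be placed.
Labelled U4 in the rat: ggggatctagctcagtggtagagc

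GenBank entries marked as snRNA held 243 mouse reads and 46 rat reads, of which 12 and 0 could be placed on a spliceosomal snRNA. In the mouse, 1 entry held 110 reads, and all of them shared an 18-mer with reads annotated as rRNA. Another entry held 84 reads, all on the minus strand, of which 83 shared an 18-mer with rRNA reads. Another held 20 reads, 11 of which matched the U8 gene Snord118 exactly, although no read carried the label U8. Another held 11 reads, all matching the U3 gene Rnu3b1. The entry of U12 itself held 11 reads, which were placed on U12. In the rat, 33 of 37 reads of 1 entry matched the snoRNA gene Snord95 of the mouse. These reads are counted in the 0.238% and 0.0691% above, and the placed reads alone made 0.1997% (0.189 to 0.211) and 0.0595% (0.0563 to 0.0629), a ratio of 3.35.

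Few exact matches to the mouse snRNA genes stood under other labels. Reads with mismatches were not sought there, so rat sequences that differ from the mouse gene would be missed. Of the 13 placed rat U12 reads, only 1 was exact. Exact matches to the snRNA genes under any label were 1295 in mouse sperm and 1215 in rat sperm, of which 36 and 31 stood outside the snRNA annotation. U12 was the main case in the mouse, with 32 of its 56 exact reads under other labels, and U5 in the rat, with 26 of 32. With these added, U5 had 17 exact mouse reads and 32 exact rat reads, and its ratio per 1000000 listed reads was 1.62 in place of 9.63.

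Deposited mismatches differed by label. All snRNA reads with 0 mismatches were 80.2% in mouse sperm (78.2 to 82.1) and 60.6% in rat sperm (58.0 to 63.1). U6 had 90.9% in the mouse, and U2 had 71.6% in mouse sperm and 87.3% in rat sperm. The minor U12 had 0 of 18 mouse and 0 of 13 rat reads without mismatch. Against the snRNA genes, all 15 placed mouse reads labelled U12 matched exactly.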

How the data were processed

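Each table holds deposited counts, the reads of every distinct sequence, beside the strand, the database entry and the mismatches (at most 2) that the authors recorded, per the file headers. The submitters' processing notes name Bowtie 0.12.7, mm9 and rn5, with no role stated. How adapters were trimmed and how a sequence with many matches was assigned was not given in the sources used here. Listed reads were 691381 (mouse) and 2102735 (rat). Sequences on the minus strand were turned to the read's own direction, in which 100% of the deposited mismatch letters fit in both libraries. Mouse sequences with a month as identifier and a blank count, 2535 in all and 15 of snRNA, were left out of the main values.

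Members were taken by annotation and placed without gaps, with at most 2 mismatches, on 14 snRNA transcripts of GENCODE M21 (9 main and 5 variant copies), with edlib 1.3.9.post1 for the positions of variants. The placement was tested on simulated fragments. RefSeq (GRCm38.p6) gave the end of U2. Python 3.11.15, numpy 2.4.6, scipy 1.17.1 and matplotlib 3.10.9 were used. Shares carry exact Clopper-Pearson 95% intervals and plotted counts exact Poisson 95% intervals. Sequences named were the 10 most abundant of each library and the 3 most abundant of each snRNA with at least 20 reads, of which the few shown were picked from that list. Some sequences are not reported here. The fragment regions described, the search under other labels and the forms of U1 and U2 were chosen after their values were seen. Members and lists were chosen with earlier results of these data known. Alternatives covered count, mismatch and strand filters, distinct sequences, scaling, the length window and the end windows.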

Additional observations from a re-analysis of the deposited data

Results flagged for a closer look

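In the mouse table, 15 snRNA sequences have a month where the others have an identifier, and a blank count, so that they entered no value of the report. Read as counts, the months give 128 reads, 7 to 11 each, against a limit of 3 for a count of 0. They were 7 U1 sequences with 61 reads, 6 U6 sequences with 53 reads, 1 U2 sequence with 7 and 1 GenBank sequence with 7. Of the U6 sequences, 4 ended at position 64, with 33 reads. The rat table held 0 such sequences.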

How the results depend on the processing

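No paired analysis was possible because each species has 1 library, so the groups share fewer than 2 replicate numbers, and for the same reason no library could be left out. Alternatives were compared with the 95% interval of each value. Of 120 alternatives for the main shares and their ratio, 46 lay inside that interval and 74 outside. U6 had the most mouse reads under 7 of 8 alternatives, the exception being distinct sequences, and U1 the most rat reads under 7 of 7. The snRNA share stayed higher in the mouse under each alternative run.

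With sequences of at least 10 reads only, the snRNA share was 0.130% (mouse) and 0.0305% (rat), a ratio of 4.27. Reads of 18 to 25 nt then made 5.39% and 33.4%, 5′ ends 0% and 13.4%, 3′ ends 2.43% and 0%, the most abundant sequence 33.7% and 9.93%, and 0 mismatches 100% and 70.7%. U1 held 7.28% and 39.5%, and U6 82.7% and 0%. With 0 mismatches only, the snRNA share was 0.359% and 0.0557%, a ratio of 6.45, the most abundant sequence 19.0% and 6.47%, U1 22.5% and 48.6%, U6 57.0% and 3.75%, and rat reads of 18 to 25 nt 41.3%. Under this filter rat U11 fell from 12.8% to 0.114%, since its reads carry mismatches to their entry. On the plus strand the rat share was 0.0752% and the ratio 3.20, mouse U6 held 53.2%, and 0 mismatches 84.9% of the mouse reads.

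With each distinct sequence counted once, the share was 0.741% and 0.398%, a ratio of 1.86. Lengths of 18 to 25 nt made 19.0% and 40.6%, 5′ ends 4.84% and 6.14%, 3′ ends 7.79% and 3.19%, and 0 mismatches 56.7% and 46.6%. Mouse U1 held 29.3%, and U6 23.1% and 6.40%. Without the most abundant snRNA sequence, the mouse share was 0.202% and the ratio 3.04, lengths of 18 to 25 nt made 14.4% and 33.7%, and rat 5′ ends 5.61%. Mouse U1 then held 24.0%, mouse U6 41.3%, and 0 mismatches 76.6% of the mouse reads.

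Per 1000 miRNA reads the ratio was 1.25. Reads of any label that share an 18-mer with annotated snRNA reads made 0.473% and 0.114%, a ratio of 4.16, and include rRNA and tRNA reads. The window of 18 to 27 nt held 15.2% and 41.4%. Starts at position 1 alone made 7.59% in the rat, and ends within the last 6 bases 6.52% and 8.55%, which turns the order of 6.15% and 1.52%. Giving the unnamed GenBank entries to snRNAs by shared 18-mers left U1 and U6 inside their intervals.

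The following were chosen after seeing the data. Placed reads only gave shares of 0.1998% and 0.0595%, 31.5% of 18 to 25 nt in the rat, 18.1% for the most abundant mouse sequence, 0 mismatches in 86.6% and 65.3%, U1 at 23.8% and 49.2%, and U6 at 59.0% in the mouse. Exact matches under any label gave 0.187% and 0.0578%. With U2 ending at position 191, 3′ ends made 2.61% and 0.399%. Reading months as counts left every main mouse value inside its interval. Rat values that rest on few reads, U6 with 36 placed and U12 with 13, and mouse U11 with 9, are limited by depth.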
